A study of Mus musculus with 12 samples.

Results

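The epidermal growth factor (EGF) receptor family was followed in mouse skin wounds through 10 genes, listed by name as receptors and ligands of the family: the receptors Egfr, Erbb2 and Erbb3 and the ligands Areg, Ereg, Epgn, Btc, Hbegf, Tgfa and Egf. They were 10 of the 55487 genes listed in the expression table, and all 10 passed the filter on low values in each comparison. The series measured mRNA by sequencing in 12 libraries of cutaneous wound tissue from male C57BL/6JNarl mice, which were 6 weeks old at wounding. Each mouse carried 2 punch wounds of 6 mm through the full thickness of the back skin, and the excised samples held wound and surrounding skin. In the sham group, 200 µL of 25% Pluronic F127, a gel that sets on the skin, was applied daily without drug. In the CAP group the same gel carried 10 µM capsaicin (CAP), the pungent compound of chili peppers and an agonist of the ion channel Trpv1. Wounds were taken at Day 3 and Day 6, with 3 libraries for each treatment and day, and no allele or transgene was involved. Whether libraries of a group came from separate mice is not stated, so p-values measure the spread between these libraries, which may be partly technical.

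Receptors of this family are tyrosine kinases of the cell surface that act in pairs. Egfr binds the EGF-like ligands, Erbb2 has no known ligand and serves as a partner, and Erbb3 binds neuregulins and signals mainly through its partners because its own kinase is weak. The ligands are made as membrane-bound precursors, and proteases such as Adam17 and Adam10 release them. In skin the family is known for driving keratinocyte proliferation and migration, and Areg, Hbegf, Tgfa and Ereg act largely as autocrine factors of keratinocytes during re-epithelialization.

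Among the receptors, Erbb2 had the highest level over the 12 libraries, 57.1 ± 10.6 TPM (mean ± SD), followed by Erbb3 at 48.5 ± 10.9 TPM and Egfr at 36.0 ± 4.27 TPM. TPM, the share of a gene among all transcripts of a library, is scaled for transcript length, so levels can be set side by side between genes. Among the ligands the order of means was Ereg at 42.0 ± 32.2 TPM, Hbegf at 41.5 ± 8.79 TPM, Tgfa at 35.4 ± 7.02 TPM, Epgn at 26.9 ± 8.63 TPM, Areg at 25.3 ± 8.34 TPM, Btc at 7.85 ± 2.73 TPM and Egf at 2.35 ± 0.791 TPM. Only the steps from Areg to Btc and from Btc to Egf were wider than the ranges, with the higher gene above in 12 of 12 libraries. All other neighbours in the order of the 10 genes had overlapping ranges. The mean of Ereg was drawn up by a few libraries, and Ereg stood above Hbegf in only 4 of 12 libraries. Ereg was also the most variable of the 10, with a highest value 7.64 times its lowest, whereas the highest value of Egfr was 1.57 times its lowest.

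**Figure D1:**
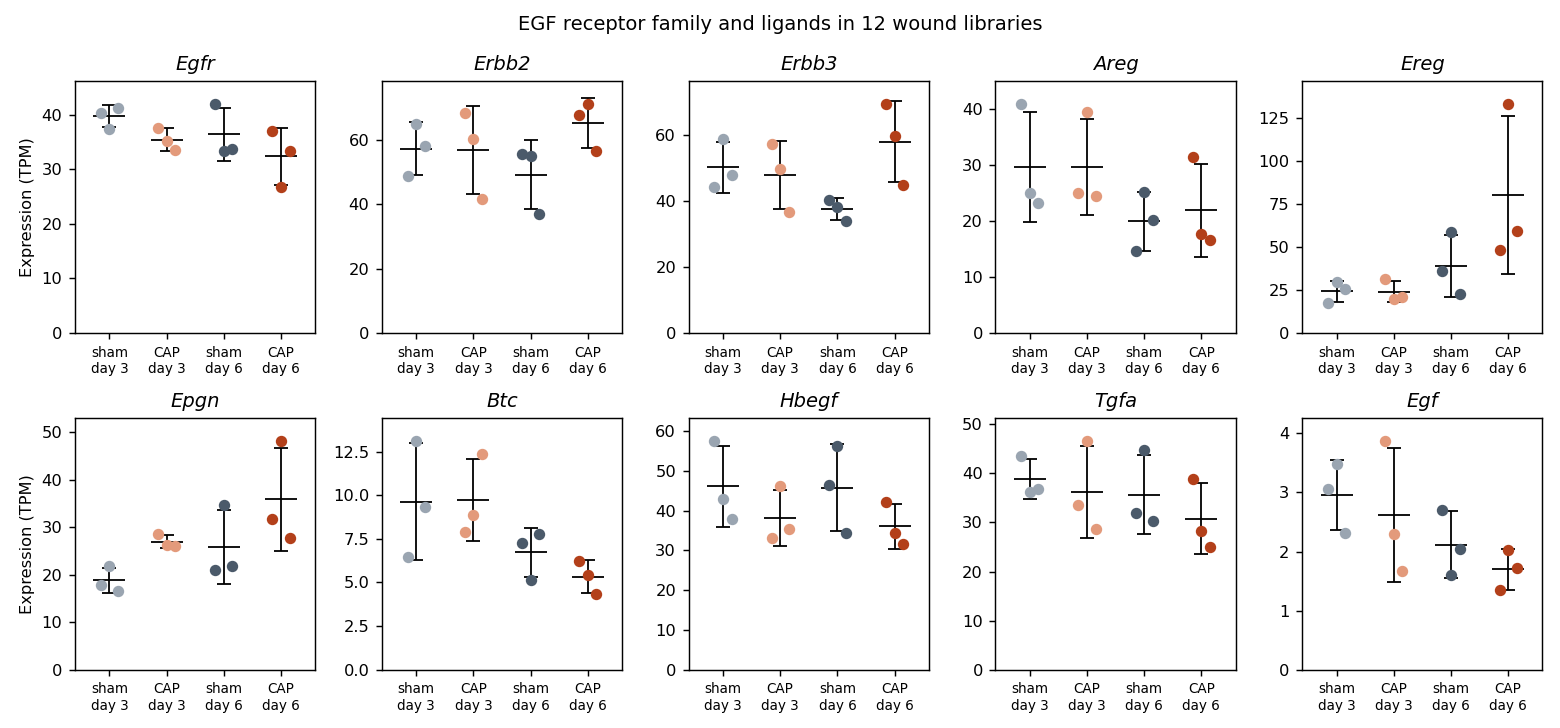
Expression in TPM (y axis, linear, from 0) of the 10 genes in the 3 libraries of each treatment and day (points), with the group mean and SD (bars). Ereg in CAP wounds at Day 6 ranged from 48.5 to 133 TPM against 20.0 to 31.5 TPM in CAP wounds at Day 3, while Egfr stayed between 26.7 and 42.0 TPM in all 12 libraries.

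Keratinocyte markers were present in all libraries, with a summed level of 8 basal keratinocyte genes between 12970 and 29311 TPM. CAP replicate 2 at Day 6 stood apart from the rest. Its correlation with the other 11 libraries across genes had a median of 0.942, against medians of 0.958 to 0.964 for the others, and its summed suprabasal keratinocyte markers were the highest of all at 93074 TPM. Where the difference of a family gene between treatments at Day 6 moved by over 1.5 times without this library, the value without it is given as well. In bulk tissue, fewer cells of a type and less RNA per cell cannot be told apart.

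Ereg, which encodes epiregulin, was the only gene of the family that passed the threshold in any comparison, an unadjusted p under 0.05 in limma together with a change of at least 2-fold. It rose from Day 3 to Day 6 in CAP-treated wounds. Its levels at Day 3 were 31.5, 20.0 and 21.0 TPM in the CAP group and 17.5, 29.8 and 25.5 TPM in the sham group. At Day 6 they were 48.5, 133 and 59.4 TPM in the CAP group and 35.9, 58.6 and 22.9 TPM in the sham group. All 3 CAP libraries at Day 6 thus lay above all 3 CAP libraries at Day 3, whereas the sham libraries of the days overlapped.

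From Day 3 to Day 6 in CAP wounds the mean of Ereg went from 24.2 ± 6.36 to 80.4 ± 46.2 TPM (n = 3 each), a log2 difference of 1.62 (SE 0.39) or 3.07-fold. In limma the p was 0.0046 before and 0.295 after adjustment over all genes, so the call did not survive correction. An exact permutation test gave 0.1, the smallest p that 3 against 3 libraries allow. Without CAP replicate 2 at Day 6 the log2 difference was 1.18, still past the threshold. In sham wounds the corresponding difference was 0.62 (SE 0.34, limma adjusted p = 0.454, exact permutation p = 0.3).

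At Day 6, Ereg in the CAP group stood 0.996 log2 units above the sham group (SE 0.46, 95% confidence interval -0.08 to 2.07), just below 2-fold, with a limma p of 0.065 before and 0.282 after adjustment and an exact permutation p of 0.2. The groups overlapped, since sham replicate 2 at 58.6 TPM exceeded CAP replicate 1 at 48.5 TPM. The call depended on single libraries. Without sham replicate 2 at Day 6 the difference was 1.34 and without CAP replicate 1 at Day 6 it was 1.29, both past the threshold. Without CAP replicate 2 at Day 6 it was 0.56. At Day 3 the difference between the treatments was -0.0022 log2 units (95% confidence interval -0.59 to 0.59). The test of the change in the CAP effect between the days gave 0.998 log2 units (SE 0.58, limma adjusted p = 0.499), and 0.56 without CAP replicate 2 at Day 6, so a difference between the days was not shown.

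Ereg lies in a cluster of ligand genes on chromosome 5 (GRCm38/mm10, positions 91027464 to 91402994, 375.5 kb) that also holds Epgn, Areg and Btc as its only other protein-coding genes. Epgn is at 91027464 to 91035215, Ereg at 91074622 to 91093646 and Areg at 91139599 to 91148432, all on the plus strand, and Btc is at 91357261 to 91402994 on the minus strand. The start of Ereg overlaps an antisense gene, Gm19610, listed at a mean of 1.77 TPM, and reads of the pair cannot be told apart if counting ignored strand. The sequences before the annotated starts are shown for the 3 cluster genes with an entry among the RefSeq promoters of GRCm38.p6. No window was available for Ereg, so its sequence could not be set beside the others. Sequences run from 5′ to 3′ on the strand of the gene, and capitals mark a match to a searched motif. Epgn is chr5:91027267-91027463 on the plus strand, ending where the annotated gene begins. Areg is chr5:91139349-91139598 on the plus strand. Btc is chr5:91402995-91403244 on the minus strand.
Epgn: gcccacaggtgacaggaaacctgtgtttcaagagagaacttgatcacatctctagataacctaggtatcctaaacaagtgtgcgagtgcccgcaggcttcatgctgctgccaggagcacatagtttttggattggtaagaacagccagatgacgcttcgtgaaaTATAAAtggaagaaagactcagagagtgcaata
Areg: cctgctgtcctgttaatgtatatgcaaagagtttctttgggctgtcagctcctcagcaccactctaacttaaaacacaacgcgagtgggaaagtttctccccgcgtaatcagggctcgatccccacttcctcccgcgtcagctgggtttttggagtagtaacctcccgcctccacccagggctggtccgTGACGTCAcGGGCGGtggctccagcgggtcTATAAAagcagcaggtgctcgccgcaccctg
Btc: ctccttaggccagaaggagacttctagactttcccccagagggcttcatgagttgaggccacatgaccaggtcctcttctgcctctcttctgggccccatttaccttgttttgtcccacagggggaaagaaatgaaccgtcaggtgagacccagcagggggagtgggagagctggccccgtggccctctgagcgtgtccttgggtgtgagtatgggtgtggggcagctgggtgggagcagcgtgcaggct

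The motifs searched on both strands in the 250 bases before the RefSeq start were the AP-1 site TGANTCA, the GC box GGGCGG, the cAMP response element TGACGTCA and the TATA box TATAAA. Areg held the cAMP response element at -61, a GC box at -52 and a TATA box at -31, counted from the RefSeq start. Epgn held a TATA box at -86 by the same count. The RefSeq start of Epgn lies inside the annotated gene, and the last 53 bases of its window were cut from the printed sequence. The position -86 is therefore not counted from the end of that sequence. No searched motif was in the Btc window. Over 32851 promoters of the same length, 1.55% held the cAMP response element, 32.7% the GC box, 12.4% the TATA box and 6.75% the AP-1 site. The 7 of 10 genes with an entry gave 8 windows, none of which held the AP-1 letters, 3 of which held the GC box (Areg, Tgfa and Egfr) and 2 of which held the TATA box. Matches are descriptions of letters only.

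Epgn, which encodes epigen, was higher in CAP than in sham wounds at Day 3 without reaching 2-fold. Its levels at Day 3 were 28.6, 26.3 and 26.0 TPM in the CAP group and 17.9, 21.9 and 16.6 TPM in the sham group. Every CAP library lay above every sham library. The means were 27.0 ± 1.44 and 18.8 ± 2.73 TPM (n = 3 each), a log2 difference of 0.53 (SE 0.12, 95% confidence interval 0.23 to 0.82). The limma p was 0.00402 before and 0.522 after adjustment, and the exact permutation test gave 0.1. Leaving out any library gave 0.45 to 0.64. In the same libraries the erythroid marker genes were also higher in CAP wounds, summing to 2357 to 2803 TPM against 514 to 753 TPM in the sham group, with 5 of 5 tested past the threshold beside 1.58% of all genes. Across the 12 libraries Epgn had r = 0.06 with the erythroid genes (n = 12, permutation p = 0.858, adjusted p = 0.915) and rho = 0.04 (permutation p = 0.905, adjusted p = 0.965), and r was 0.85 at Day 3, -0.85 at Day 6 and -0.38 without the 2 farthest libraries. The part of the erythroid difference in the Day 3 value of Epgn was not tested. At Day 6 the levels were 31.8, 48.2 and 27.7 TPM in the CAP group and 20.9, 34.7 and 21.8 TPM in the sham group, and the groups overlapped. The difference at Day 6 was 0.47 (SE 0.27, limma adjusted p = 0.355, exact permutation p = 0.3) and 0.24 without CAP replicate 2. The change of the CAP effect between the days was -0.05 (95% confidence interval -0.76 to 0.65).

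Btc, which encodes betacellulin, was lower at Day 6 than at Day 3 in CAP wounds. Its levels in the CAP group were 7.90, 8.87 and 12.4 TPM at Day 3 and 6.21, 5.44 and 4.34 TPM at Day 6, and the days did not overlap. The log2 difference was -0.84 (SE 0.22), with a limma p of 0.0075 before and 0.311 after adjustment and an exact permutation p of 0.1, and it was under 2-fold. In sham wounds the levels were 6.44, 13.1 and 9.30 TPM at Day 3 and 7.24, 5.15 and 7.77 TPM at Day 6, which overlapped, with a log2 difference of -0.47 (limma adjusted p = 0.478, exact permutation p = 0.3). Areg, which encodes amphiregulin, ranged from 23.1 to 40.9 TPM at Day 3 and from 14.6 to 31.5 TPM at Day 6 over both treatments. The treatment groups of Areg overlapped at both days, with log2 differences of 0.01 (SE 0.27) at Day 3 and 0.11 (SE 0.30) at Day 6, or 0.23 there without CAP replicate 2. From Day 3 to Day 6 Areg differed by -0.56 in sham wounds (limma adjusted p = 0.373, exact permutation p = 0.3) and by -0.46 in CAP wounds (limma adjusted p = 0.576, exact permutation p = 0.3).

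The remaining ligands showed no call. Hbegf, the heparin-binding EGF-like growth factor on chromosome 18 (positions 36504927 to 36515805, minus strand), ranged from 31.6 to 57.6 TPM. Its log2 differences between CAP and sham were -0.26 (SE 0.19) at Day 3 and -0.33 (SE 0.20) at Day 6, with overlap at both days. Tgfa, transforming growth factor alpha, on chromosome 6 (86195223 to 86275719, plus strand), ranged from 25.1 to 46.7 TPM, with log2 differences between CAP and sham of -0.13 (SE 0.19) and -0.22 (SE 0.21) at Day 3 and Day 6. Egf, the founding ligand of the family, on chromosome 3 (129677565 to 129755316, minus strand), stayed at or below 3.88 TPM. The groups overlapped in each of the 4 comparisons, with log2 differences between -0.53 and -0.23 between them.

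The 7 ligands summed to 170 ± 17.8 TPM in sham and 167 ± 20.5 TPM in CAP wounds at Day 3, and to 175 ± 45.4 and 212 ± 52.5 TPM at Day 6 (n = 3 each). The sums overlapped between all groups. Their makeup is described here and was not tested, and the share of Ereg overlapped between the treatments at each day. Ereg made up 9.34, 17.3 and 16.8% of the ligand sum in the sham group and 19.3, 10.5 and 14.1% in the CAP group at Day 3. At Day 6 it made up 22.5, 25.9 and 16.4% in the sham group and 24.2, 49.5 and 35.7% in the CAP group. Ereg was the most abundant ligand mRNA in 3 of 3 CAP libraries and 1 of 3 sham libraries at Day 6 and in none of the 6 libraries at Day 3. At Day 3, Hbegf led in 3 of 3 sham libraries and 1 of 3 CAP libraries, and Tgfa led in the other 2 CAP libraries.

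**Figure D2:**
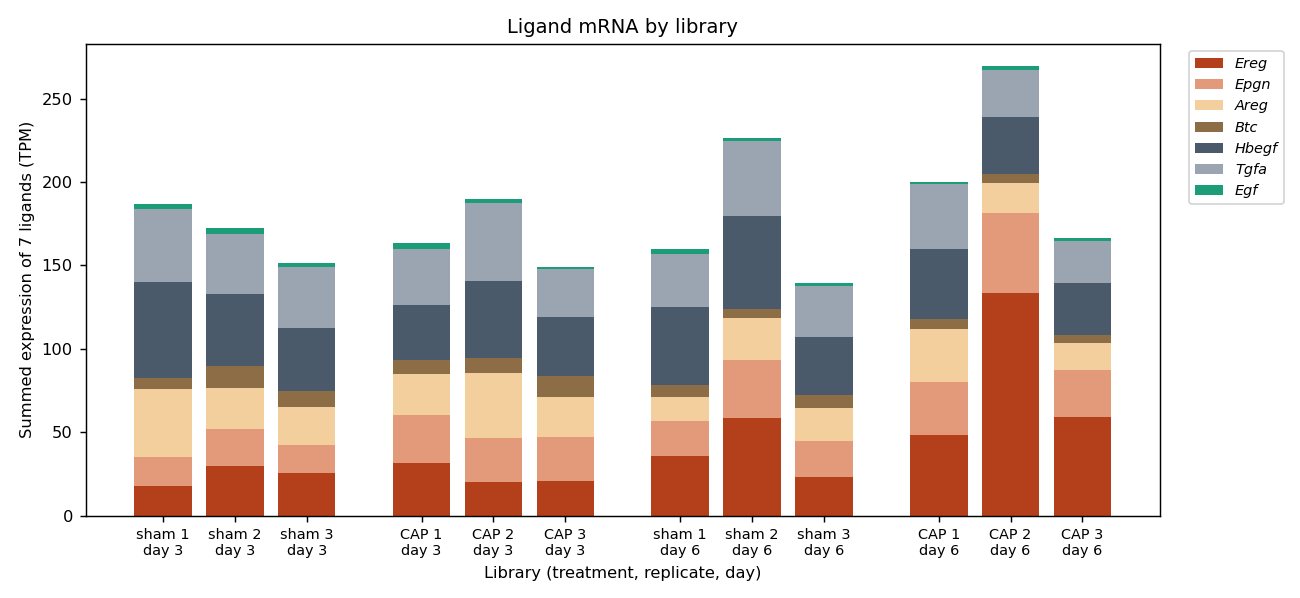
Summed TPM of the 7 ligands in each of the 12 libraries (stacked bars, linear axis from 0), labelled by treatment, replicate and day. CAP replicate 2 at Day 6 has the highest sum, 269 TPM, of which Ereg makes up 49.5%.

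Among the receptors, Erbb3 was higher in CAP than in sham wounds at Day 6 without reaching 2-fold. Erbb3 is on chromosome 10 (128567523 to 128589652, minus strand). At Day 6 its levels were 69.5, 59.8 and 44.9 TPM in the CAP group and 40.3, 38.3 and 33.9 TPM in the sham group, so every CAP library exceeded every sham library. The means were 58.1 ± 12.4 and 37.5 ± 3.29 TPM, a log2 difference of 0.61 (SE 0.17, 95% confidence interval 0.20 to 1.01). The limma p was 0.00926 before and 0.209 after adjustment, and the exact permutation test gave 0.1. Leaving out any library gave 0.47 to 0.78. At Day 3 the levels were 57.3, 49.9 and 36.8 TPM in the CAP group and 44.2, 58.9 and 47.8 TPM in the sham group, which overlapped, with a difference of -0.08 (SE 0.19).

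The estimated CAP effect on Erbb3 was 0.69 log2 units larger at Day 6 than at Day 3 (SE 0.27, 95% confidence interval 0.09 to 1.28), with a limma p of 0.027 before and 0.428 after adjustment. A difference between the days was thus not shown after adjustment. Within the sham group Erbb3 was lower at Day 6 than at Day 3 by a log2 difference of -0.41 (SE 0.13, limma adjusted p = 0.172, exact permutation p = 0.1), without overlap of the libraries. Within the CAP group the difference was 0.28 (SE 0.22, limma adjusted p = 0.641, exact permutation p = 0.4). These comparisons share libraries, and the sham group at Day 6 enters both the higher value in CAP wounds and the lower value at the later day.

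Erbb2, on chromosome 11 (98412470 to 98437716, plus strand), measured 67.8, 71.1 and 56.4 TPM in the CAP group and 55.7, 55.0 and 36.9 TPM in the sham group at Day 6. The groups did not overlap, though the margin between the lowest CAP and the highest sham library was under 1 TPM. The log2 difference was 0.42 (SE 0.19, 95% confidence interval -0.02 to 0.86), with a limma p of 0.0568 before and 0.271 after adjustment and an exact permutation p of 0.1. Without sham replicate 3 at Day 6 it was 0.23, so its size rested on that library. The last bases of Erbb2 overlap Mien1 on the opposite strand, listed at a mean of 41.8 TPM. Egfr, also on chromosome 11 (16752203 to 16918158, plus strand), was the steadiest member, with CAP groups at 35.5 ± 2.08 TPM at Day 3 and 32.4 ± 5.23 TPM at Day 6 and sham groups at 39.8 ± 2.01 and 36.4 ± 4.85 TPM. Its log2 differences between CAP and sham were -0.16 (95% confidence interval -0.37 to 0.05) and -0.17 (95% confidence interval -0.55 to 0.20), and the groups overlapped. Without CAP replicate 2 the Egfr difference at Day 6 was -0.04. The 3 receptors together summed to 147 ± 14.0 and 140 ± 25.9 TPM in sham and CAP wounds at Day 3 and to 123 ± 17.1 and 156 ± 19.9 TPM at Day 6.

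**Figure D3:**
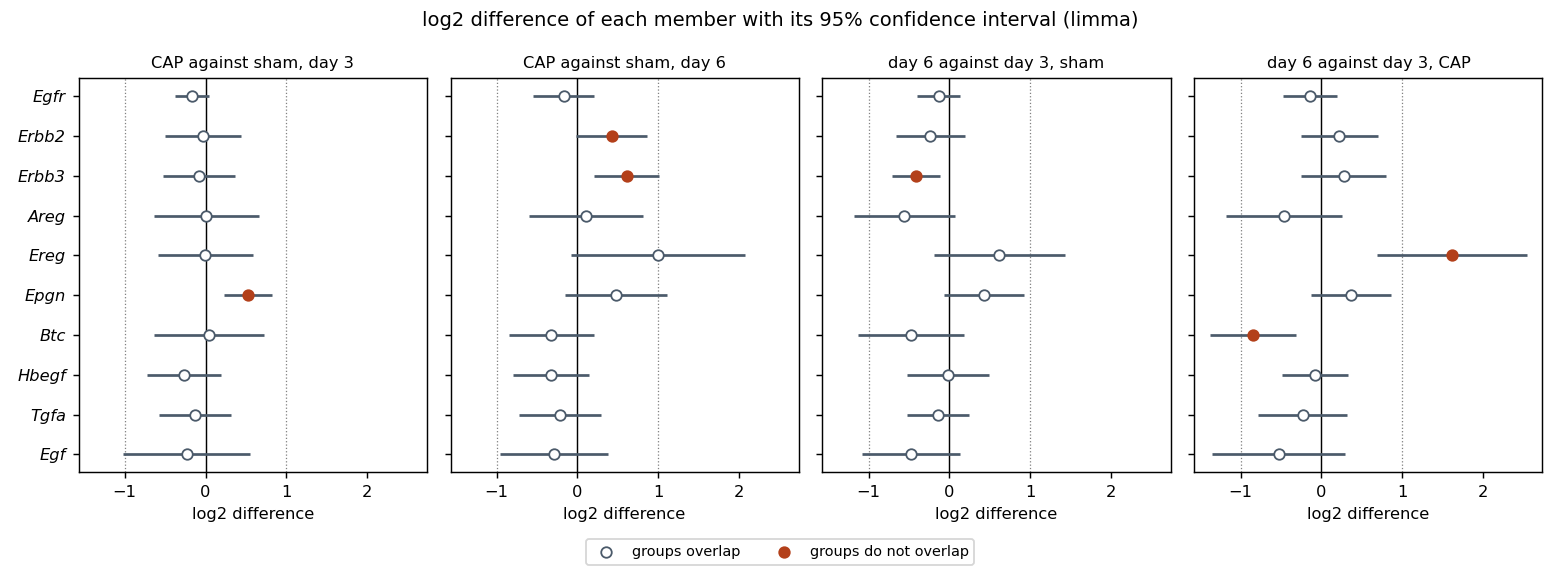
log2 difference (x axis) of each gene with its 95% confidence interval in the 4 comparisons of groups. Filled points mark comparisons whose libraries do not overlap, and dotted lines mark 2-fold. Ereg from Day 3 to Day 6 in CAP wounds, at 1.62, is the only point past 2-fold whose interval leaves out 0.

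Counted over the family, CAP against sham at Day 3 gave 0 of 10 genes past the threshold, where 1.58% of all 18330 genes tested passed. At an unadjusted p under 0.05 there was 1 member (Epgn) beside 6.60% of all genes, at an adjusted p under 0.05 there were 0 beside 0.0164%, and 1 had groups that did not overlap beside 11.6%. At Day 6 the counts were 0 past the threshold (3.80% of 18323 genes), 1 at an unadjusted p under 0.05 (19.2%; Erbb3), 0 at an adjusted p under 0.05 (0%) and 2 without overlap (26.0%). Day 6 against Day 3 in sham wounds gave 0 past the threshold (3.75% of 18368 genes), 1 at an unadjusted p under 0.05 (16.0%; Erbb3), 0 at an adjusted p under 0.05 (2.29%) and 1 without overlap (21.4%). Day 6 against Day 3 in CAP wounds gave 1 past the threshold (2.79% of 18202 genes), 2 at an unadjusted p under 0.05 (11.6%; Ereg and Btc), 0 at an adjusted p under 0.05 (0.00549%) and 2 without overlap (17.7%). The change of the CAP effect between the days gave 0 past the threshold (4.90% of 20267 genes), 1 at an unadjusted p under 0.05 (11.3%; Erbb3) and 0 at an adjusted p under 0.05 (0%). All of these are limma counts. In each comparison the shares were small counts out of 10 genes near the background of all genes.

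The median log2 difference of the 10 genes was -0.06 for CAP against sham at Day 3 and -0.03 at Day 6, beside -0.05 and -0.12 for all genes tested. From Day 3 to Day 6 it was -0.19 in sham wounds and -0.11 in CAP wounds, beside 0.00 and -0.05 for all genes. Median-ratio scaling brought the all-gene median at Day 6 from -0.12 to -0.01, so differences there are also given relative to it. The split of calls over all genes at Day 6 moved with it, from 268 higher and 429 lower to 389 higher of 688. Relative to the all-gene median, Ereg stood at 1.12, Erbb3 at 0.73, Epgn at 0.60, Erbb2 at 0.54 and Areg at 0.23, whereas Hbegf stood at -0.21, Btc at -0.20, Egf at -0.17, Tgfa at -0.10 and Egfr at -0.05.

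Members were also compared with each other across the 12 libraries, as 45 pairs on the log2(TPM + 0.1) scale with 2-sided permutation tests. The points share treatments and days, so values within each day are given as well. The closest pair was Erbb2 and Erbb3, with Pearson r = 0.88 (n = 12, permutation p = 8e-05, adjusted p = 0.0036) and Spearman rho = 0.94 (permutation p = 3e-05, adjusted p = 0.00135). Without the 2 libraries farthest from the median r was 0.85, and it was 0.97 at Day 3 and 0.85 at Day 6. Epgn and Egfr, a ligand and its receptor, followed with a negative relation, r = -0.83 (n = 12, permutation p = 0.00158, adjusted p = 0.0174) and rho = -0.73 (permutation p = 0.00872, adjusted p = 0.0981). Their r was -0.57 without the 2 farthest libraries, -0.81 at Day 3 and -0.79 at Day 6. Hbegf and Tgfa had r = 0.82 (n = 12, permutation p = 0.00146, adjusted p = 0.0174) and rho = 0.76 (permutation p = 0.00574, adjusted p = 0.0861), with r of 0.74 without the 2 farthest libraries, 0.79 at Day 3 and 0.89 at Day 6.

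The neighbouring genes Ereg and Epgn had r = 0.81 (n = 12, permutation p = 0.00157, adjusted p = 0.0174), but rho was 0.68 (permutation p = 0.0193, adjusted p = 0.144). Their r was 0.65 without the 2 farthest libraries, 0.25 at Day 3 and 0.92 at Day 6, and 0.83 with group means removed. The r within Day 3 was thus low, though 6 libraries are too few to show that no relation held there. Areg and Tgfa had r = 0.80 (n = 12, permutation p = 0.00193, adjusted p = 0.0174) and rho = 0.83 (permutation p = 0.00154, adjusted p = 0.0347), with r of 0.83 without the 2 farthest libraries, 0.83 at Day 3 and 0.74 at Day 6. These 5 pairs were those with an adjusted p of r under 0.05.

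Several members tracked the markers of a cell type. Of 160 pairs of a member with the mean log2 level of a marker list, 6 had an adjusted p of r under 0.05. Erbb3 followed the 8 basal keratinocyte genes with r = 0.91 (n = 12, permutation p = 1e-04, adjusted p = 0.008) and rho = 0.93 (permutation p = 3e-05, adjusted p = 0.0048). It was 0.85 without the 2 farthest libraries, 0.97 at Day 3 and 0.99 at Day 6. Erbb2 followed the same list with r = 0.84 (n = 12, permutation p = 0.00033, adjusted p = 0.0176) and rho = 0.84 (permutation p = 0.00118, adjusted p = 0.049), with r of 0.70 without the 2 farthest, 0.96 at Day 3 and 0.87 at Day 6. By rank, Erbb2 also ran opposite to the 7 macrophage genes, with rho = -0.83 (n = 12, permutation p = 0.00153, adjusted p = 0.049) and r = -0.75 (permutation p = 0.00478, adjusted p = 0.0789), and r was -0.50 without the 2 farthest, -0.77 at Day 3 and -0.83 at Day 6.

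Ereg followed the 8 suprabasal keratinocyte genes, such as Krt1, Krt10 and Lor, with r = 0.85 (n = 12, permutation p = 0.00074, adjusted p = 0.0197) and rho = 0.76 (permutation p = 0.00603, adjusted p = 0.107). It was 0.66 without the 2 farthest libraries, both of them CAP libraries of Day 6, and 0.92 at Day 3 and 0.82 at Day 6. Ereg also followed a list of 7 T and innate lymphoid genes with r = 0.83 (n = 12, permutation p = 0.00064, adjusted p = 0.0197) and rho = 0.83 (permutation p = 0.00127, adjusted p = 0.049), with r of 0.73 without the 2 farthest, 0.63 at Day 3 and 0.74 at Day 6. The genes of this list differed in direction. For CAP against sham at Day 3, 1 of 7 passed the threshold as higher and 1 as lower, beside 1.58% of all genes. At Day 6 the median log2 difference of the list was 0.07, with 4 of 7 positive. From Day 3 to Day 6 in CAP wounds the median was 0.72, with 6 of 7 positive. Areg followed the 6 wound edge keratinocyte genes, such as Krt6a and Krt16, with r = 0.84 (n = 12, permutation p = 0.00057, adjusted p = 0.0197) and rho = 0.77 (permutation p = 0.0047, adjusted p = 0.107), with r of 0.76 without the 2 farthest, 0.54 at Day 3 and 0.91 at Day 6.

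Egf followed 6 skeletal muscle genes, with r = 0.95 (n = 12, permutation p = 1e-05, the smallest that these resamples can give, adjusted p = 0.0016) and rho = 0.91 (permutation p = 8e-05, adjusted p = 0.0064). Its r was 0.90 without the 2 farthest libraries, 0.94 at Day 3 and 0.89 at Day 6. The summed muscle genes ranged from 1924 to 5945 TPM, so they were present in all libraries.

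**Figure D4:**
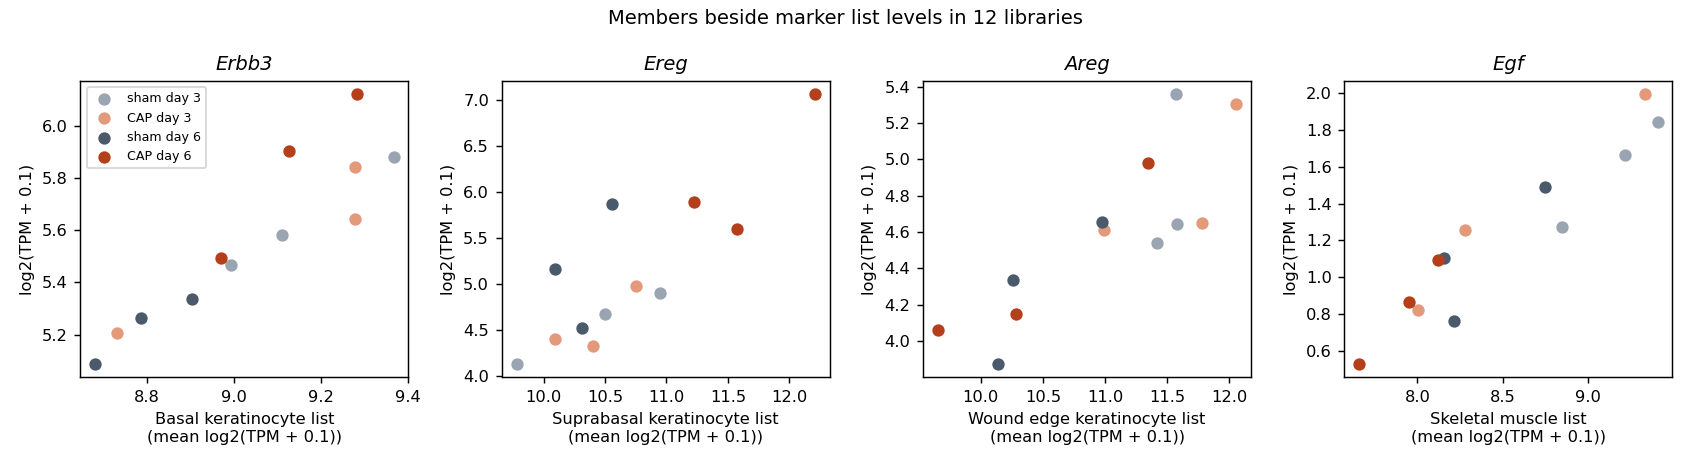
Expression of Erbb3, Ereg, Areg and Egf (y axis, log2(TPM + 0.1)) against the mean log2(TPM + 0.1) of a marker list (x axis) in the 12 libraries, coloured by treatment and day. The relation is closest for Egf with skeletal muscle genes (r = 0.95) and Erbb3 with basal keratinocyte genes (r = 0.91).

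The marker lists themselves differed between groups beside these results. At Day 6 the suprabasal genes summed to between 40947 and 93074 TPM in the CAP group and between 17672 and 21962 TPM in the sham group, and 5 of 8 passed the threshold as higher in CAP, beside 3.80% of all genes in either direction. In the same libraries the basal genes summed to between 14372 and 25315 TPM in the CAP group and between 12970 and 15298 TPM in the sham group, with 1 of 8 past the threshold as higher. The 7 neutrophil genes summed to 281 to 2675 TPM in the CAP group and 1769 to 3319 TPM in the sham group at Day 6, with 0 of 6 tested past the threshold by limma at an unadjusted or an adjusted p under 0.05. The 6 endothelial genes summed to 83.1 to 232 TPM in the CAP group and 269 to 364 TPM in the sham group, and 3 of 6 passed the threshold as lower in CAP. The 7 macrophage genes summed to 1726 to 3305 TPM and 2908 to 4172 TPM, with 7 of 7 log2 differences negative and 0 past the threshold. Of these genes, 2 had an unadjusted limma p under 0.05, beside 19.2% of all genes. From Day 3 to Day 6 in CAP wounds, the comparison in which Ereg was called, the suprabasal genes summed to between 15541 and 25393 TPM at Day 3 and between 40947 and 93074 TPM at Day 6, and 5 of 8 passed the threshold as higher beside 2.79% of all genes. In that comparison 3 of 6 wound edge genes and 3 of 6 neutrophil genes tested passed as lower, with sums of 19422 to 39029 TPM at Day 3 and 7157 to 24819 TPM at Day 6 for the former and 1889 to 4876 TPM and 281 to 2675 TPM for the latter. Between the days in sham wounds, where Ereg was not called, 3 of 6 wound edge genes also passed as lower, beside 3.75% of all genes. There, 0 of 8 suprabasal genes passed, and of 7 neutrophil genes 1 passed as higher and 0 as lower. The part of these differences in the values of Ereg, Erbb3 and Erbb2 was not tested.

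The genes whose pattern over the 12 libraries was most like each member were listed by Pearson r among the 16169 genes that averaged 1 TPM or more. For Erbb3 they were Tom1l2 (r = 0.98), Celsr1 (0.97) and Zfp185 (0.97), and for Erbb2 they were Rtkn (0.98), Kdf1 (0.97) and Map7 (0.97). For Egfr they were Lingo1 (0.94), Eif2ak2 (0.93) and Cul4a (0.92). Ereg was closest to Fam110a (0.96), Alox12b (0.96), a lipoxygenase of the epidermal barrier, and Krt78 (0.95), a keratin. Epgn was closest to Elovl1 (0.92), Zbtb43 (0.91) and Ly6m (0.91). Areg was closest to Gm7665 (0.93), Csta1 (0.93) and Defb14 (0.92), a beta-defensin. Hbegf was closest to the immediate early gene Junb (0.89) and to Bcl3 (0.87). Tgfa was closest to Rnase2b (0.91), Sh2d5 (0.90) and Sowahb (0.90), and Btc to Klk1b11 (0.86), Gpn2 (0.86) and Dync1i2 (0.86). Egf was closest to 3 muscle genes, Eef1a2 (0.98), Acta1 (0.97) and Trim54 (0.97). Each r is the highest of many over 12 libraries and is given as a description.

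The rest of the pathway was read from lists of genes around the family. The fourth receptor, Erbb4, was listed at the value that stands for 0 in 10 of 12 libraries and at most at 0.0107 TPM, and the neuregulin Nrg3 was at that value in 11 of 12. Nrg1, the main neuregulin ligand of Erbb3, measured 16.9, 8.96 and 10.6 TPM in sham and 11.2, 12.6 and 9.22 TPM in CAP wounds at Day 3. At Day 6 it measured 10.8, 12 and 8.10 TPM in sham and 6.70, 6.72 and 4.93 TPM in CAP wounds, without overlap. The log2 difference between CAP and sham at Day 6 was -0.74 (SE 0.21, limma adjusted p = 0.209, exact permutation p = 0.1), opposite in sign to that of Erbb3 in the same libraries. Within the CAP group, Nrg1 at Day 6 differed from Day 3 by -0.84 (SE 0.19, limma adjusted p = 0.295, exact permutation p = 0.1). Neither reached 2-fold. Nrg2 and Nrg4 stayed at or below 4.23 and 4.16 TPM.

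Among 10 genes of ligand shedding (membrane proteases, the rhomboid-like regulators Rhbdf1 and Rhbdf2, Furin and the inhibitor Timp3), 1 passed the threshold at Day 6 as lower in CAP, beside 3.80% of all genes, and none passed at Day 3 or between the days. At an unadjusted limma p under 0.05 there was 1 of 10 at Day 3 (6.60% of all genes) and 3 at Day 6 (19.2%), where 9 of 10 log2 differences were negative. Between the days there were 4 in sham wounds (16.0%) and 1 in CAP wounds (11.6%). The gene past the threshold at Day 6 was Adam12, a protease also made by fibroblasts, at 18.7 ± 10.8 TPM in the CAP group against 36.5 ± 2.83 TPM in the sham group, a log2 difference of -1.13 (SE 0.41, limma adjusted p = 0.23, exact permutation p = 0.1). Adam12 lost the call when any library but CAP replicate 3 at Day 6 was left out, and was -0.66 without CAP replicate 2. The median of the list at Day 6 was -0.36 beside -0.12 for all genes. Adam17 and Adam10, the principal sheddases of these ligands, passed in no comparison. The CAP effect on Adam8, a protease of myeloid cells, was 1 of 10 to change between the days past the threshold (4.90% of all genes), by -1.46 (SE 0.57, limma adjusted p = 0.428), and it lost the call in 6 of the 12 leave-outs.

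Among 18 feedback inhibitors, Dusp4, a phosphatase that inactivates MAP kinases, was the only gene past the threshold at Day 6 (3.80% of all genes) and was lower in CAP wounds, at 1.79 ± 0.770 TPM against 4.11 ± 0.790 TPM. Its log2 difference was -1.21 (SE 0.32, limma adjusted p = 0.208, exact permutation p = 0.1), which fell short of 2-fold without CAP replicate 2 at Day 6 (-0.99) or with a pseudocount of 1 (-0.89). Dusp4 kept the call under both scalings. Dusp6, a phosphatase of the same kind, measured 48.5 ± 15.9 against 81.8 ± 13.3 TPM (log2 difference -0.80, limma adjusted p = 0.222, exact permutation p = 0.1), and the Ras pathway inhibitor Spred1 measured 15.9 ± 3.12 against 24.8 ± 2.58 TPM (-0.65, limma adjusted p = 0.209, exact permutation p = 0.1). Both were under 2-fold, and their groups did not overlap. In sham wounds 2 of the 18 passed between the days, beside 3.75% of all genes. Spry4, a Sprouty inhibitor, rose from 1.51 ± 0.454 TPM at Day 3 to 4.53 ± 1.45 TPM at Day 6, a log2 difference of 1.51 (SE 0.30, limma adjusted p = 0.0521, exact permutation p = 0.1). Dusp4 rose there from 1.91 ± 0.567 to 4.11 ± 0.790 TPM (1.09, SE 0.26, limma adjusted p = 0.0867, exact permutation p = 0.1). However, it fell short of 2-fold without sham replicate 3 at Day 3 (0.91), without sham replicate 1 at Day 6 (0.95) or with a pseudocount of 1 (0.82). None of the 18 passed the threshold at Day 3, between the days in CAP wounds or in the change of the CAP effect. There, 0, 2 and 1 of them had an unadjusted limma p under 0.05, beside 6.60, 11.6 and 11.3% of all genes. The same count was 5 of 18 for CAP against sham at Day 6 (19.2% of all genes) and 4 of 18 between the days in sham wounds (16.0%).

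Of 21 adaptors and members of the Ras-MAPK cascade none passed the threshold in any of the 5 comparisons by limma, with 0 to 4 at an unadjusted p under 0.05 in each, beside 6.60 to 19.2% of all genes. Map2k1, the kinase above the ERK kinases, was at 52.2 ± 10.6 TPM in CAP and 80.0 ± 4.11 TPM in sham wounds at Day 6 (log2 difference -0.64, limma adjusted p = 0.206, exact permutation p = 0.1). The 10 output genes of a published transcript score of MAPK activity, of which Spry2, Spry4, Dusp4 and Dusp6 are also among the feedback inhibitors, had a median of -0.46 for CAP against sham at Day 6, with 1 of 10 past the threshold (Dusp4, beside 3.80% of all genes) and 8 of 10 negative. At Day 3 their median was -0.11, with 8 of 10 also negative and 0 past the threshold. There, 1 had an unadjusted limma p under 0.05, beside 6.60% of all genes. The medians of all genes were -0.12 at Day 6 and -0.05 at Day 3. Under median-ratio scaling the medians of the output genes were -0.34 at Day 6 and -0.05 at Day 3. At Day 6, 4 of the 10 had an unadjusted limma p under 0.05, beside 19.2% of all genes. Besides Dusp4 and Dusp6 these were Ccnd1 and Etv5. Ccnd1, the cyclin D1 gene, was at 37.4 ± 3.50 TPM in CAP against 51.0 ± 1.01 TPM in sham wounds (-0.45, limma adjusted p = 0.205, exact permutation p = 0.1). The transcription factor gene Etv5 was at 8.64 ± 1.88 against 13.1 ± 1.58 TPM (-0.61, limma adjusted p = 0.215, exact permutation p = 0.1). No gene of these lists had an adjusted p under 0.05 in any comparison.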

How the data were processed

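Gene expression of 12 wound libraries was analyzed from 1 table of TPM values that the authors deposited, with 55487 genes, a value of 0.0001 in place of 0 and the same total in each library. Per the labels, the library kit was SureSelect XT HS2 mRNA, while the submitters' processing notes name bcl2fastq, Trimmomatic 0.36 and mm10. The methods name StringTie for expression. The sources used here name no aligner, annotation release or strand setting. TPM is relative to all transcripts of a library and keeps no read depth, so no counting error or detection limit could be computed, and a few very abundant genes can shift all others.

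Groups were taken from the labels. Differences were fitted on log2(TPM + 0.1) with limma 3.58.1 (trend) in R 4.3.3, for genes averaging 0.3 TPM or more in both groups (in any of the 4 groups for the change of the CAP effect between days). Fold changes on this scale understate those of low genes. The threshold was an unadjusted p under 0.05 and at least 2-fold, as in the methods of the study, with Benjamini-Hochberg adjusted p over all genes beside it. Each fit used only the libraries compared. Exact permutation tests were 2-sided. Relations across libraries used 100000 resamples. The fit was tested on simulated data. The members, gene lists and tests were chosen with earlier results of these data known. Named genes outside the family were up to 4 per list and comparison with the smallest p, and the 3 genes with the highest r for each member, of which 1 is not reported here. Marker lists covered 16 cell types, and those for hair follicle, sebaceous gland, fibroblast, macrophage, neutrophil, mast cell, endothelium, adipocyte, Schwann cell, melanocyte and erythroid genes gave no relation with a member at an adjusted p of r under 0.05 (for macrophage genes, rho with Erbb2 passed). Gene positions are from GENCODE and matched those of the table. At most 0.852% of a member's 31-base words occurred in transcripts of another gene. Alternatives were a pseudocount of 1, no filter, a joint fit, a replicate block, 2 scalings, robust estimation and leaving out each library. Figures were drawn with matplotlib 3.10.9 in Python 3.11.15.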

Additional observations from a re-analysis of the deposited data

Results flagged for a closer look

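Erbb3 is listed here because its CAP effect had an unadjusted limma p under 0.05 in the interaction fit between the days. The estimate was 0.69 log2 units (SE 0.27, limma p of 0.027 before adjustment, adjusted p = 0.428). At an unadjusted p under 0.05 it was 1 of 10 members, beside 11.3% of all genes. A difference between the days was therefore not shown after adjustment. All 3 CAP libraries exceeded all 3 sham libraries at Day 6, and the groups overlapped at Day 3. Leaving out single libraries gave 0.51 to 0.86, and the unadjusted p was above 0.05 in 5 of the 12 leave-outs. The basal keratinocyte genes, which Erbb3 followed with r = 0.91, summed to 14372 to 25315 TPM in CAP and 12970 to 15298 TPM in sham wounds at Day 6, and their part in the difference was not tested.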

How the results depend on the processing

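The count of members past the threshold was the same under a pseudocount of 1, no filter, the joint fit, both scalings and robust estimation. Leaving out single libraries gave 0 to 1 for CAP against sham at Day 6 and 0 to 1 for the change of the CAP effect between days. In both cases Ereg was the member, at 1.34 without sham replicate 2 at Day 6 and, for the former, 1.29 without CAP replicate 1 at Day 6. Median-ratio scaling turned the sign of Ereg (0.059) and Erbb2 (0.029) at Day 3 and of Egfr (0.042) in the change between days, and quantile normalization that of Ereg (0.061), Erbb2 (0.0078), Egf (0.034, change between days) and Egfr (0.044, change between days). None of these was called. Signs also turned with single libraries left out for uncalled members. For CAP against sham at Day 3 the ranges were -0.22 to 0.26 for Areg, -0.22 to 0.16 for Ereg, -0.32 to 0.029 for Tgfa, -0.21 to 0.30 for Btc, -0.55 to 0.032 for Egf, -0.18 to 0.17 for Erbb2 and -0.22 to 0.10 for Erbb3, and at Day 6 -0.19 to 0.29 for Areg. Between days Hbegf ranged from -0.18 to 0.17 in sham and from -0.20 to 0.066 in CAP wounds. For the change between days the ranges were -0.20 to 0.32 for Areg, -0.25 to 0.10 for Hbegf, -0.27 to 0.11 for Tgfa, -0.29 to 0.18 for Epgn, -0.32 to 0.26 for Egf and -0.11 to 0.12 for Egfr. The cause was not tested. With the replicate block, Ereg remained the 1 member called from Day 3 to Day 6 in CAP wounds, and 0 were called elsewhere. Replicate numbers were treated as names in the main fits. Whether same-numbered libraries were paired or shared a batch is not stated. Deviations of same-numbered libraries correlated between -0.17 and 0.29. Each library correlated best with its own number in CAP against sham at Day 6 and in the sham days. Counts over all genes past the threshold moved with a pseudocount of 1 (154, 385, 405, 299 and 580 in place of 290, 697, 688, 507 and 994, in the order of the comparisons), no filter (568, 1156 and 842 at Day 3, between sham days and between CAP days) and single libraries. They were 510 at Day 3 without CAP replicate 1 at Day 3. Without CAP replicate 2 at Day 6 they were 311 for CAP against sham and 657 for the change between days, and without CAP replicate 3 at Day 6 they were 1483, 886 between CAP days and 1777 for the change between days. Counts at an adjusted p under 0.05 were less stable, from 0 to 1430 for CAP against sham at Day 6 (without CAP replicate 3) and from 420 to 0 between sham days (joint fit). With TPM alone the read depth is unknown, and 3 libraries a group limit each comparison.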
